A study of Mus musculus with 20 samples.

Results

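The 10 genes described here encode calcium/calmodulin-dependent protein kinases: the CaMKII subunits (Camk2a, Camk2b, Camk2d, Camk2g), CaMKI kinases (Camk1, Camk1d, Camk1g), CaMKIV (Camk4) and the upstream kinases that switch on CaMKI and CaMKIV (Camkk1, Camkk2). They were taken by symbol as a gene family, and all 10 were found among the 55487 genes of the count table. The family was selected on measured values of these libraries, seen in earlier results, and which values led to it is not given in the sources used here. Every difference below may have been among them, so the tests, which come from fits over all genes with adjustment over all genes, describe the family and are not independent evidence.

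When calcium rises in a neuron it binds calmodulin, which then relieves the autoinhibition of these kinases. CaMKII forms large ring-shaped holoenzymes that can stay active through autophosphorylation, whereas CaMKI and CaMKIV need a second phosphorylation by a CaMKK. In growing axons calcium signals steer the growth cone, and CaMKII and CaMKI act on its cytoskeleton, while CaMKIV is best known as a nuclear kinase of transcription factors such as CREB.

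The libraries hold RNA of mouse subcerebral projection neurons, cortical neurons that send axons to the brainstem and spinal cord, at postnatal day 1. The 4 groups had 5 libraries each: WT growth cones and KO-labelled (Bcl11b KO) growth cones, both from brainstem and spinal cord, and WT somata and KO-labelled somata, both from cortex. Bcl11b encodes a zinc finger transcription factor of these neurons, and the series text calls its KO null. The mutant allele, any driver, the label used to collect the neurons, and whether animals were pooled are not given in the sources used here, so p-values measure the spread between these libraries only.

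Total counts were 26382991 to 29323028 in WT growth cones, 21657575 to 27723067 in KO-labelled growth cones, 18962308 to 36059112 in WT somata and 35243688 to 51205154 in KO-labelled somata. Bcl11b itself went against the soma labels: it stood at 655 ± 122 counts per 1000000 counts of the library (CPM; SD, n = 5) in WT somata and 1082 ± 53.6 in KO-labelled somata, a log2 difference of 0.74 (two-sided exact permutation test, p = 0.00794, the smallest that 5 against 5 allows). In growth cones it was 108 ± 20.1 and 108 ± 35.3 CPM (exact p = 0.905). The deleted exons are not given, so a count over the whole gene checks the labels only in part, and every direction below is that of KO-labelled libraries. Markers of other cells differed between the compartments. The libraries of the compartments did not overlap in the following lists: summed astrocyte markers (5 genes) were at 464 to 889 CPM in growth cone libraries and 14.7 to 212 in soma libraries, oligodendrocyte lineage markers (6 genes) at 516 to 2232 and 57.4 to 100, vessel and blood markers (4 genes) at 221 to 525 and 0.284 to 46.8, brainstem and spinal cord neuron markers (7 genes, of which Chat was at 0 in all WT libraries) at 26.5 to 136 and 0.0235 to 2.88, interneuron markers (6 genes) at 550 to 747 and 112 to 516, and subcerebral projection neuron markers (8 genes, Bcl11b among them) at 710 to 1039 and 2086 to 2835. In the subcerebral list Pcp4 went against the sum: it was higher in growth cones in both genotype labels (values below). In the brainstem and spinal cord list Slc6a5, Hoxb8, Chat and Slc5a7 were at 0 in all KO-labelled somata. Callosal, corticothalamic, microglia and cell cycle markers overlapped. Their part in the results between compartments was not tested.

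Levels are compared between genes as RPKM, CPM divided by the exon length of the table in kilobases. In WT somata Camk2b, the actin-binding CaMKII subunit, was far above the others at 128 ± 14.2 RPKM (SD, n = 5). Camk1g, the membrane-anchored CaMKI kinase, followed at 24.9 ± 7.88, then Camkk2 at 18.3 ± 2.04, Camkk1 at 17.7 ± 4.57, Camk4 at 10.8 ± 2.41, Camk1 at 7.29 ± 1.60 and Camk1d at 5.78 ± 0.707. Camk2g (2.06 ± 0.478), Camk2a (1.41 ± 0.149) and Camk2d (0.277 ± 0.189) were the lowest. In this order the libraries of neighbours overlapped except between Camk2b and Camk1g, between Camk1d and Camk2g, and between Camk2a and Camk2d. Camk2a, the subunit that dominates the mature forebrain, was among the 3 lowest of the family here.

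In WT growth cones the order was flatter. Camk2b again had the highest mean (31.3 ± 10.6 RPKM), followed by Camk1g (22.1 ± 5.96), Camk1 (18.8 ± 4.42), Camkk1 (10.5 ± 2.84), Camk2g (9.76 ± 1.93), Camkk2 (9.75 ± 2.78), Camk4 (5.62 ± 4.81), Camk2d (4.88 ± 0.809), Camk1d (4.69 ± 2.03) and Camk2a (2.22 ± 1.66), and every pair of neighbours in that order overlapped. KO-labelled growth cones had Camk2b (31.6 ± 14.1), Camk1 (21.9 ± 3.44) and Camk1g (21.1 ± 9.99) on top. There only Camk2g (10.8 ± 2.33) and Camkk2 (6.53 ± 1.57) were neighbours that did not overlap. In KO-labelled somata Camk1 had rank 4 at 18.0 ± 1.75, against rank 6 in WT somata. The median coefficient of variation of the 10 genes was 27.8% in WT growth cones, 46.0% in KO-labelled growth cones, 22.1% in WT somata and 17.1% in KO-labelled somata.

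**Figure D1:**
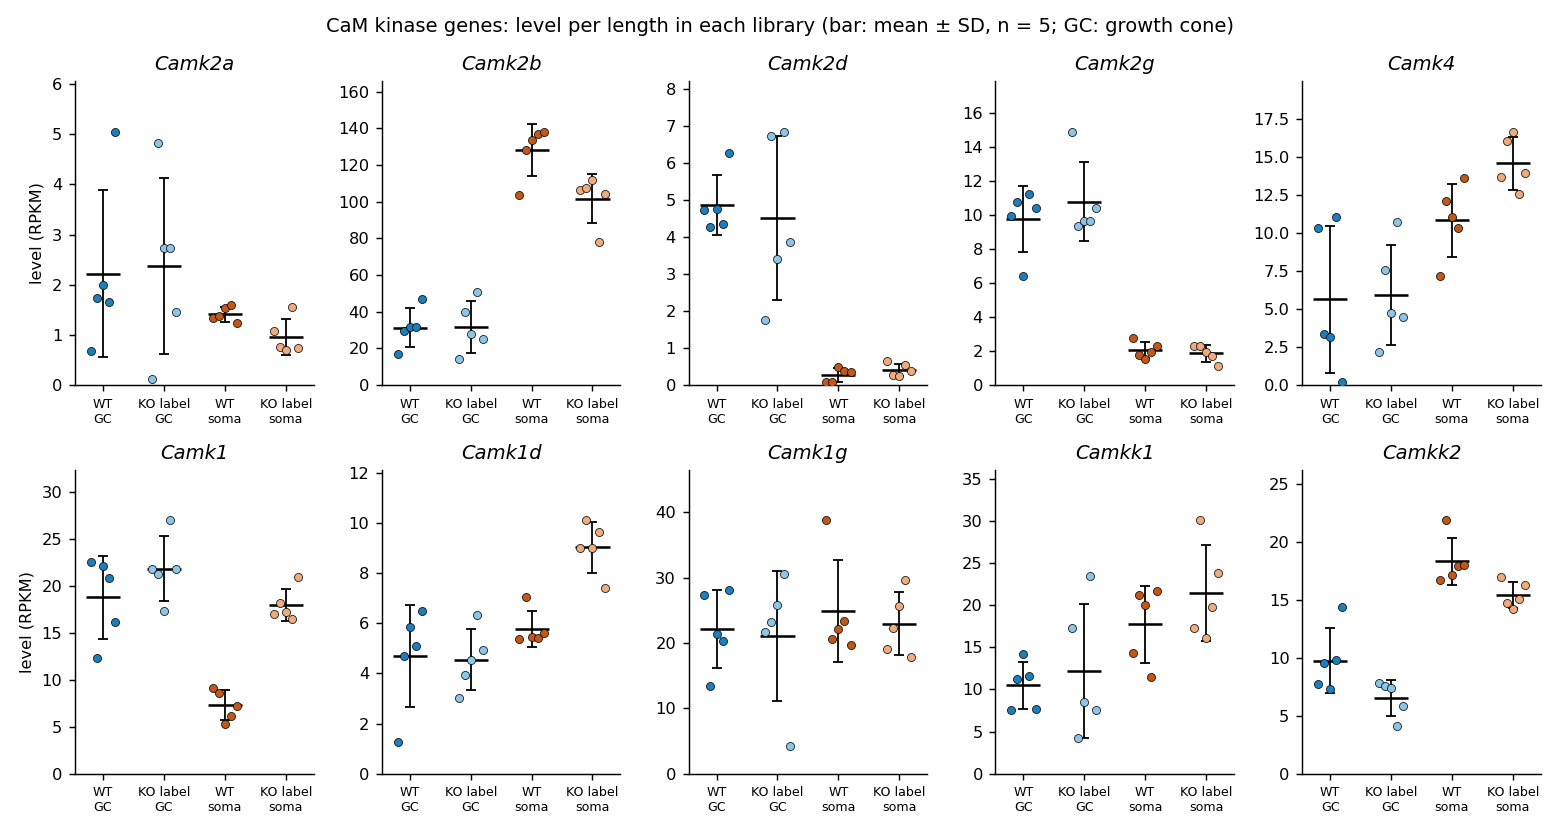
Level of each of the 10 kinase genes (y axis, RPKM, linear, each panel with its own scale) in each library, by group (x axis; GC, growth cone; KO label, labelled Bcl11b KO); bars are mean ± SD, n = 5. Camk2b is lower, and Camk2d and Camk2g are higher, in each of the 10 growth cone libraries than in each of the 10 soma libraries, and Camk1 is lower in the 5 WT soma libraries than in the other 15.

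The comparison of growth cones with somata asks which transcripts are relatively more abundant at the axon tip. In WT, Camk2d, Camk2g and Camk1 were higher and Camk2b, Camkk2 and Camkk1 were lower in growth cones (edgeR quasi-likelihood test, Benjamini-Hochberg adjusted p under 0.05 over 15128 genes). These 6 of 10 stand beside 42.8% of all genes tested that passed, with 23.1% higher and 19.7% lower. Groups did not overlap for 5 of the 10, against 37.6% of all genes, so the share of kinase genes called was not far from the background. The median log2 fold change was -0.38 for the 10 genes and 0.07 for all genes, and the latter moved to 0.28 with upper-quartile scaling. In KO-labelled libraries, 2 of the 10 were higher (Camk2d, Camk2g) and 4 lower (Camk2b, Camkk2, Camk1d, Camk4), beside 38.6% of 15410 genes (21.6% higher, 17% lower). There 6 of the 10 did not overlap, against 36.2% of all genes, and the medians were -0.58 and 0.11. Camk2d, Camk2g, Camk2b and Camkk2, 4 genes in all, passed in both genotype labels with the same direction. In bulk samples fewer cells of a type and less RNA per cell cannot be told apart.

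Camk2b fell most among the 10. Its levels in WT growth cone libraries 7, 8, 9, 10 and 11 (experiment numbers from the titles) were 17.0, 29.4, 31.8, 31.7 and 46.7 RPKM, against 104, 128, 134, 137 and 138 in WT soma libraries 12, 14, 22, 25 and 26. Libraries labelled KO held 14.1, 40.1, 27.6, 50.6 and 25.4 RPKM in growth cones 7 to 11 and 107, 107, 112, 78.1 and 104 in somata 14, 15, 22, 25 and 26. Each of the 10 growth cone libraries lay below each of the 10 soma libraries. The log2 fold change of Camk2b, growth cone over soma, was -2.18 ± 0.22 (SE) in WT (adjusted p = 1.27e-05) and -1.83 ± 0.25 in KO-labelled libraries (adjusted p = 0.000155).

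Camk2d and Camk2g, the broadly expressed CaMKII subunits, went the other way. Camk2d was at 4.74, 4.26, 4.77, 4.34 and 6.26 RPKM in WT growth cones 7 to 11 and at 0.0779, 0.0730, 0.479, 0.391 and 0.363 in WT somata 12, 14, 22, 25 and 26. In KO-labelled libraries it was at 1.74, 6.74, 3.42, 6.85 and 3.88 in growth cones and 0.639, 0.273, 0.252, 0.534 and 0.367 in somata. All growth cone libraries lay above all soma libraries, and WT somata 12 and 14 were the lowest, with 58 and 57 counts. Camk2d rose by a log2 fold change of 3.98 ± 0.55 in WT (adjusted p = 0.000121) and 3.32 ± 0.40 in KO-labelled libraries (6.09e-05). Summed astrocyte markers, like Camk2d, were higher in all growth cone than in all soma libraries, while within groups the orders matched only in part. The sums were 14.7, 70.8, 78.9, 157 and 152 CPM in WT somata 12, 14, 22, 25 and 26, where 12 and 14 were also lowest in Camk2d but 22, the highest in Camk2d, was not highest in the sum. In KO-labelled somata 14, 15, 22, 25 and 26 the sums were 142, 137, 76.9, 212 and 98.6 CPM. There 22 was lowest in both, and 14 and 25 were highest in both but in reverse order. Among KO-labelled growth cones library 7 was lowest in both (464 CPM) and libraries 8 and 10 highest in both (889 and 828 CPM). In WT growth cones library 11, the highest in Camk2d, had the lowest sum (586 CPM), and library 7 had the highest (822 CPM). The part of astrocyte RNA in the Camk2d difference was not tested.

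Camk2g was at 9.95, 10.8, 6.42, 11.3 and 10.4 RPKM in WT growth cones 7 to 11, and at 2.76, 1.75, 1.55, 1.96 and 2.30 in WT somata 12, 14, 22, 25 and 26. In KO-labelled libraries the growth cones held 14.9, 9.36, 9.66, 9.64 and 10.4 and the somata 14, 15, 22, 25 and 26 held 2.31, 2.30, 1.93, 1.69 and 1.12. No growth cone library came down to the highest soma library. Camk2g rose by 2.10 ± 0.27 on the log2 scale in WT (adjusted p = 7.42e-05) and by 2.46 ± 0.30 in KO-labelled libraries (6.54e-05). Camk2a did not pass in either genotype label, at a log2 fold change of 0.51 ± 0.51 in WT (adjusted p = 0.456) and 1.15 ± 0.71 in KO-labelled libraries (0.228). Its growth cone levels ran from 0.674 to 5.05 RPKM in WT and from 0.117 to 4.83 in KO-labelled libraries, around soma levels of 0.706 to 1.60.

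The make-up of the CaMKII transcripts therefore differed between compartments. Camk2b made up 97.1 ± 0.567% of the summed CaMKII RPKM in WT somata and 64.0 ± 6.997% in WT growth cones (SD, n = 5). Camk2g made up 1.61 ± 0.560% and 21.3 ± 6.76%, and Camk2d 0.202 ± 0.131% and 10.5 ± 2.42%. Libraries labelled KO had like shares, with Camk2b at 96.8 ± 0.994% in somata and 61.8 ± 9.93% in growth cones. The lowest Camk2b share was 45.6%, in growth cone library 7 labelled KO, where Camk2g made up 48.3%. Summed CaMKII levels were 132 ± 14.02 RPKM in WT somata, 105 ± 13.2 in KO-labelled somata, 48.2 ± 13.0 in WT growth cones and 49.3 ± 15.8 in KO-labelled growth cones. The exon lengths used run from 2759 bases for Camk1g to 22493 for Camk2d, so a level per length of Camk2d understates transcripts much shorter than that sum of exons.

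**Figure D2:**
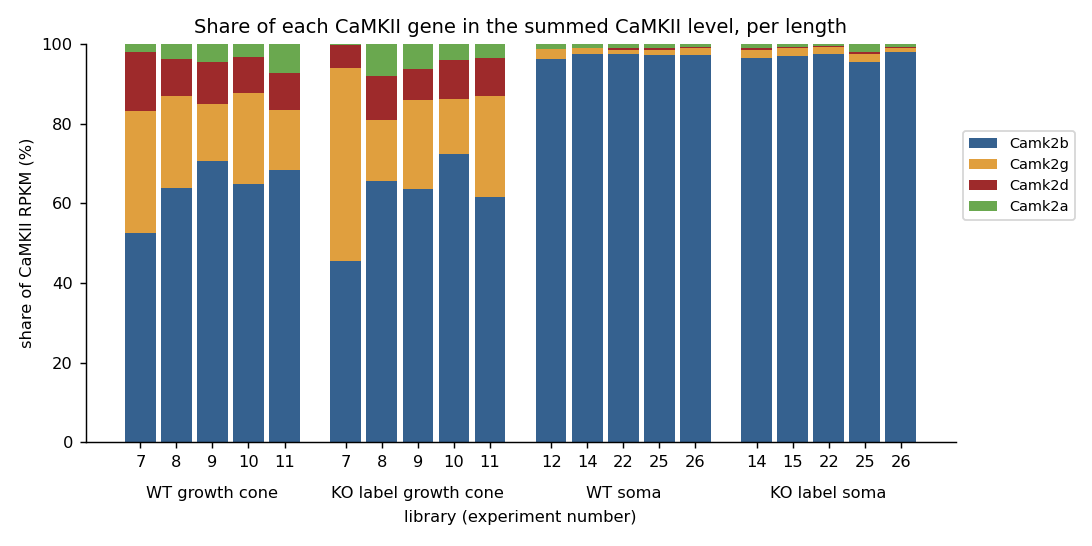
Share of each CaMKII gene in the summed CaMKII level (y axis, percent of RPKM) in each library (x axis, experiment number, by group; KO label, labelled Bcl11b KO). Camk2b takes over 95% of the bar in all 10 soma libraries and 45.6 to 72.5% in the 10 growth cone libraries.

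Both genes for the small CaMKII inhibitor proteins, Camk2n1 and Camk2n2, were higher in growth cones. Camk2n2 was at 249 ± 37.4 RPKM in WT growth cones and 5.24 ± 0.889 in WT somata, a log2 fold change of 5.43 ± 0.19 (adjusted p = 8.9e-09). In KO-labelled libraries it was at 222 ± 27.3 and 2.83 ± 1.10, a log2 fold change of 6.20 ± 0.29 (1.2e-07). Camk2n1 rose by 4.54 ± 0.32 in WT (9.71e-07) and 4.26 ± 0.26 in KO-labelled libraries (5.18e-07). Set against their target, the summed inhibitor RPKM was 5.12 to 8.34 times the summed CaMKII RPKM in the WT growth cone libraries and 3.86 to 7.77 times in those labelled KO. In somata the same ratio was 0.0449 to 0.0868 in WT and 0.0319 to 0.0869 in KO-labelled libraries. The summed inhibitor RPKM was thus above the summed CaMKII RPKM in every growth cone library and in no soma library. As given above, a level per length understates transcripts much shorter than the summed exons. The ratios are of RPKM and need not equal ratios of transcript numbers, and protein was not measured.

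Among the CaMKI kinases, Camk1 was the one that rose in WT growth cones. Its levels were 22.6, 12.3, 22.1, 20.9 and 16.2 RPKM in WT growth cones 7 to 11 and 9.18, 8.57, 5.34, 6.17 and 7.18 in WT somata 12, 14, 22, 25 and 26, with no overlap, and the log2 fold change was 1.22 ± 0.21 (adjusted p = 0.000678). In KO-labelled libraries growth cones held 21.8, 21.3, 17.3, 27.0 and 21.8 RPKM and somata 17.1, 18.2, 17.3, 16.6 and 20.9, which overlap, at a log2 fold change of 0.18 ± 0.14 (0.368). Camk1d was at 1.27 to 6.50 RPKM in WT growth cones and 5.38 to 7.03 in WT somata (log2 fold change -0.45 ± 0.36, adjusted p = 0.341). In KO-labelled libraries Camk1d was at 3.004 to 6.33 in growth cones and 7.42 to 10.1 in somata and fell by 1.10 ± 0.21 on the log2 scale (0.00166). Camk1g did not pass, at -0.32 ± 0.26 in WT (0.354) and -0.23 ± 0.40 in KO-labelled libraries (0.677). Its libraries overlapped throughout, with growth cone library 11 labelled KO lowest at 4.25 RPKM and WT soma 12 highest at 38.8.

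Camk4 and the upstream kinases were lower in growth cones or did not pass. Camk4 was at 10.3, 3.36, 3.18, 11.1 and 0.167 RPKM in WT growth cones 7 to 11 and 7.13 to 13.6 in WT somata, and its log2 fold change of -1.11 ± 0.72 did not pass (adjusted p = 0.238). Growth cone library 11 held 16 Camk4 counts where the other WT growth cone libraries held 293 to 957. In KO-labelled libraries Camk4 was at 2.14 to 10.7 RPKM in growth cones and 12.5 to 16.6 in somata, without overlap, and fell by 1.45 ± 0.36 (0.00694); in a fit of all 20 libraries this call was lost (adjusted p = 0.0532). Camkk2, which also activates the energy sensor AMPK, was at 7.75, 9.50, 7.33, 9.84 and 14.3 RPKM in WT growth cones 7 to 11 and 16.7, 21.8, 17.1, 17.9 and 18.0 in WT somata 12, 14, 22, 25 and 26. All WT growth cones lay below all WT somata, and Camkk2 fell by 1.05 ± 0.19 in WT (0.000782) and by 1.32 ± 0.21 in KO-labelled libraries (0.000428), where growth cones held 4.09 to 7.83 RPKM and somata 14.2 to 16.9. Camkk1 fell by 0.91 ± 0.26 in WT (0.0142), with overlapping libraries (7.58 to 14.2 RPKM against 11.5 to 21.7). In KO-labelled libraries Camkk1 did not pass at -0.92 ± 0.42 (0.104), and it passed there without growth cone library 10 (-1.23, 0.0397).

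**Figure D3:**
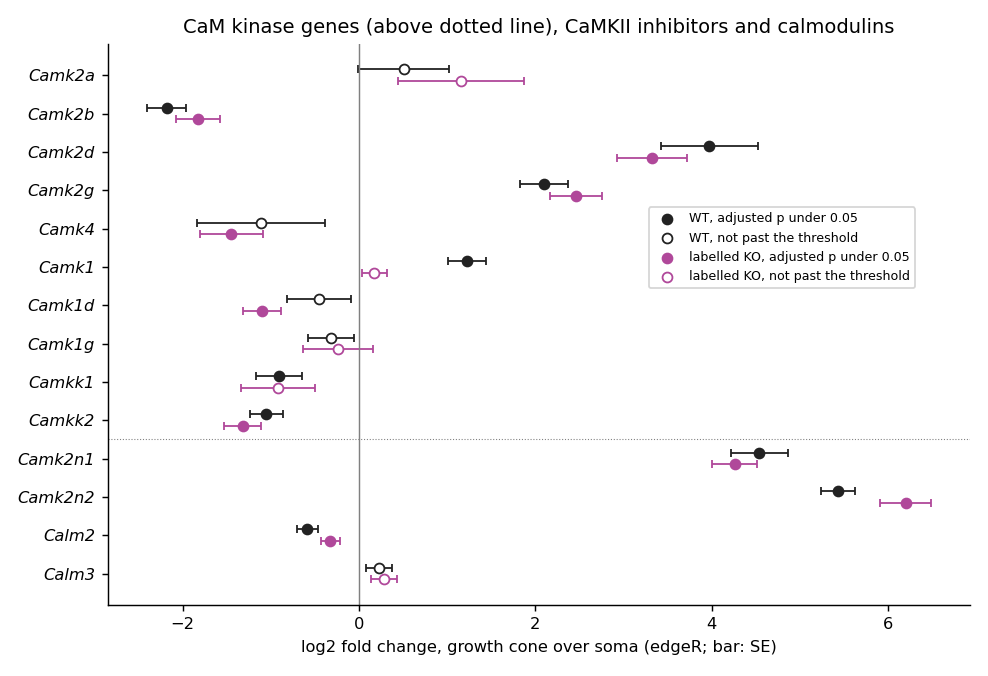
Log2 fold change, growth cone over soma (x axis), of the 10 kinase genes, the 2 CaMKII inhibitor genes and the calmodulin genes Calm2 and Calm3 (y axis), in WT (black) and in KO-labelled libraries (purple); bars are SE and filled points have an adjusted p under 0.05. Camk2d, Camk2g, Camk2n1 and Camk2n2 lie to the right and Camk2b and Camkk2 to the left in both genotype labels.

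Of 39 other genes of calcium/calmodulin signalling, 37 were tested in each comparison; Dapk2 and Mylk did not pass the filter on low counts. In WT 8 were higher and 11 lower in growth cones, beside 42.8% of all genes tested that passed (23.1% higher, 19.7% lower). In KO-labelled libraries 6 were higher and 10 lower, beside 38.6% of all genes (21.6% higher, 17% lower). The medians were -0.28 and -0.17 against 0.07 and 0.11 for all genes. The counts by kind of gene given next stand beside the same shares. Calm2 and Calm3 encode the same calmodulin protein. Calm2, at 2591 RPKM in WT somata and 1908 in WT growth cones (means, n = 5), fell by 0.58 ± 0.12 in WT (adjusted p = 0.00229) and by 0.32 ± 0.11 in KO-labelled libraries (0.0365), while Calm3 did not pass (0.23 ± 0.15 in WT, 0.235). Leaving out growth cone 8 or soma 15, 22 or 25 ended the Calm2 call in KO-labelled libraries (adjusted p = 0.0551 to 0.0813). With upper-quartile scaling Calm2 no longer passed in KO-labelled libraries (-0.13, 0.368), nor did it with library totals alone, and Calm3 passed in WT (0.44, 0.0285) and in KO-labelled libraries (0.48, 0.0203).

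Of the 4 small IQ-motif proteins that bind calmodulin, Pcp4 and Pcp4l1 rose in growth cones and Nrgn and Gap43 did not pass. Pcp4, which speeds calcium exchange on calmodulin and is also a marker of these neurons, was at 309 RPKM in WT growth cones and 39.6 in WT somata (log2 fold change 2.84 ± 0.29, adjusted p = 1.37e-05). Pcp4l1 rose by 4.82 ± 0.88 (0.000908). In KO-labelled libraries the values were 4.64 ± 0.34 for Pcp4 (1.88e-06) and 6.22 ± 1.08 for Pcp4l1 (0.000787). Of the 7 other kinases of the calmodulin-dependent group that were tested, 5 fell in growth cones in both genotype labels and none rose. Dclk1, a microtubule-binding kinase, fell by 2.29 ± 0.21 in WT (7.01e-06), Camkv, a kinase-like protein that lacks activity, fell by 1.79 ± 0.24 (0.000109), and Dapk1, Eef2k and the scaffold Cask fell by 1.59, 1.67 and 0.82. In KO-labelled libraries the Dapk1 call was lost when growth cone 9 or 10 or soma 14, 15 or 25 was left out (0.0502 to 0.0697), and the Cask call without growth cone 10 or soma 14 (0.0527 to 0.0551). Both were also lost with upper-quartile scaling (Dapk1 0.0699, Cask 0.0714), and Dapk1 with library totals alone.

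Of 6 phosphatase genes, Ppp3cb, a catalytic subunit of calcineurin, rose by 1.45 ± 0.24 in WT (adjusted p = 0.000388) and 1.64 ± 0.20 in KO-labelled libraries (7.56e-05). Ppm1e, a phosphatase that removes the activating phosphate from CaM kinases, rose (1.01 ± 0.32, 0.0241) and the regulatory calcineurin subunit Ppp3r1 fell by 0.60 ± 0.13 (0.00334) in WT, and neither passed in KO-labelled libraries. Of 15 substrates and effectors, 2 rose and 4 fell in WT. Marcks, which links actin to the membrane, rose by 0.67 ± 0.15 (0.00358), and Kalrn, a guanine nucleotide exchange factor, by 0.94 ± 0.34 (0.0400). Crtc1, a CREB coactivator, fell by 1.43 ± 0.24 (0.000429) and Syn1, a vesicle-binding CaM kinase substrate, by 1.05 ± 0.18 (0.000548), as did Hdac5 and Prkaa2. The WT calls were lost for Ppm1e without growth cone 7 (0.0556) or soma 22 (0.0504), for Prkaa2 without soma 25 (0.0512), and for Kalrn without growth cone 8, 9, 10 or 11 or soma 22 or 26 (0.0526 to 0.102). Kalrn was also lost with no filter on low counts and in the fit of all 20 libraries, as was Ppp3r1 in that fit (0.0641), and Hdac5 with upper-quartile scaling (0.0513). In KO-labelled libraries, 1 rose (Marcks) and the same 4 fell.

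The comparison of genotype labels within somata asks how these transcripts differ between cell bodies of the 2 labels. Camk1 and Camk1d, both CaMKI kinases, were higher in KO-labelled somata than in WT somata and no kinase gene was lower. These 2 of 10 stand beside 0.731% of 14911 genes that passed (0.416% higher, 0.315% lower), and the same 2 did not overlap between the groups, against 3.13% of all genes. The median log2 difference of the 10 was 0.07 and that of all genes was -0.00. Camk1 was at 16.6 to 20.9 RPKM in the 5 KO-labelled somata and 5.34 to 9.18 in the 5 WT somata, and each library is given above. Its log2 difference was 1.30 ± 0.15 (adjusted p = 0.00253), rank 11 by p among all genes. It passed in every alternative fit, at 0.0421 or lower, including the fits that left out 1 library each.

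Camk1d was at 8.995, 10.1, 9.02, 9.64 and 7.42 RPKM in KO-labelled somata 14, 15, 22, 25 and 26, and at 5.38, 7.03, 5.46, 5.41 and 5.61 in WT somata 12, 14, 22, 25 and 26. The lowest of the KO-labelled libraries lay just above the highest WT library. The log2 difference was 0.63 ± 0.12 (adjusted p = 0.0411). This call was lost when any of 8 of the 10 libraries was left out (all but WT soma 14 and soma 26 labelled KO, adjusted p up to 0.119). It was also lost with no filter on low counts (0.0715), in a fit of all 20 libraries (0.940) and with a block on the experiment number.

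The other 8 kinase genes did not pass between soma labels. Camk2b stood at -0.35 ± 0.12 (adjusted p = 0.345), Camkk2 at -0.26 ± 0.09 (0.370), Camk4 at 0.42 ± 0.18 (0.545) and Camk2a at -0.57 ± 0.29 (0.683). Camkk1 (0.26 ± 0.22), Camk2d (0.54 ± 0.56), Camk1g (-0.13 ± 0.20) and Camk2g (-0.16 ± 0.26) had adjusted p-values of 0.923 to 0.987. Camk1 made up 19.4 ± 3.30% of the summed level of Camk1, Camk1d and Camk1g in WT somata and 36.4 ± 5.84% in KO-labelled somata. In the growth cones of those labels it made up 41.3 ± 5.56% and 48.0 ± 13.1%. Of the 37 related genes 0 were higher and 2 lower in KO-labelled somata: Pcp4 fell by 1.86 ± 0.23 (0.00367) and Nrgn, a postsynaptic protein that holds calmodulin at low calcium, by 1.19 ± 0.18 (0.00917). Of all genes tested, 0.416% were higher and 0.315% lower. The Nrgn call was lost in the fit of all 20 libraries (0.606), and the Pcp4 call with a block on the experiment number (0.0600). Camk2n2 did not pass at -0.90 ± 0.37 (0.504), although its groups did not overlap.

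Other values moved with the soma labels. Interneuron markers (6 genes) summed to 112 to 182 CPM in WT somata and 380 to 516 in KO-labelled somata, corticothalamic markers (3 genes) to 95.5 to 213 and 260 to 372, and subcerebral projection neuron markers (8 genes) to 2086 to 2359 and 2591 to 2835, none of these overlapping and no marker of these lists at 0 throughout a group. The subcerebral list includes Bcl11b, at 494 to 780 CPM in WT somata and 1023 to 1151 in KO-labelled somata. Without Bcl11b the sums of that list overlapped, and Pcp4, also in it, was lower in KO-labelled somata. Callosal markers (5 genes; 162 to 248 and 138 to 233 CPM) and astrocyte markers (5 genes; 14.7 to 157 and 76.9 to 212) overlapped. Total counts were also higher in most KO-labelled somata than in WT somata, as given above. The part of these in the Camk1 and Camk1d differences was not tested.

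**Figure D4:**
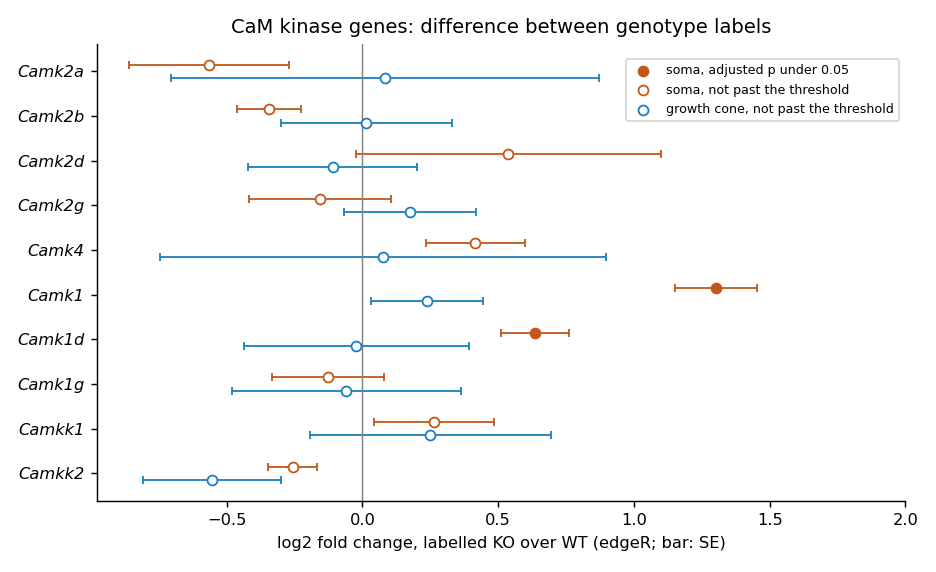
Log2 difference, labelled KO over WT (x axis), of the 10 kinase genes (y axis) in somata (orange) and growth cones (blue); bars are SE and filled points have an adjusted p under 0.05. Camk1 and Camk1d in somata are the filled points, and no growth cone point is filled.

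The stretches just upstream of Camk1 and Camk1d are shown because these are the 2 genes that differed between the soma labels. They are RefSeq sequences of GRCm38.p6 on the minus strand, cut before the first annotated transcribed base: 188 bases at chr6:113343985-113344172 for Camk1 and 250 bases at chr2:5714763-5715012 for Camk1d. Capitals mark the letters TGACG, a core of the cAMP response element that CREB, a CaMKIV target, binds.
Camk1 upstream: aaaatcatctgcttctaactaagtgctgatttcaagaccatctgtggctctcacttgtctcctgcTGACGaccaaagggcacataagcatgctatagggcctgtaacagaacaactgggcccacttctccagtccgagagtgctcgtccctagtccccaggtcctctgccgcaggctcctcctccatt
Camk1d upstream: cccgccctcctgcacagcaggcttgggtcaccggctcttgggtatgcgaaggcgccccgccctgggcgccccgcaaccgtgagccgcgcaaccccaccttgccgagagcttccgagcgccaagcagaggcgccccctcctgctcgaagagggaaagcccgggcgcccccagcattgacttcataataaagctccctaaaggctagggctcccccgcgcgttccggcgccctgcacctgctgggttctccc

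The Camk1 stretch holds 1 TGACG and a GC content of 52.7%, and the Camk1d stretch holds 0 and a GC content of 69.2%. RefSeq windows of 300 bases (250 before to 50 after the start) were matched for 7 of the 10 genes, in 8 windows. TGACG, searched on both strands, was in 2 of the 8 (Camk1 and Camkk1) and in 20.8% of all 32851 windows. TGACCA, letters bound by the BCL11A protein, a paralog of BCL11B, was in 1 of the 8 (Camk1) and in 13.6% of all windows, and the full palindrome TGACGTCA in 0 of the 8 and 1.79% of all. TGACG overlaps the palindrome by construction, and a match is no evidence of binding. In the count table Camk1 spans chr6:113334124-113343984 on the minus strand (exons of 5975 bases in all), and 3.88% of its exon bases overlap Ogg1 on the opposite strand. Whether counting used strand is not given, and Ogg1 had 2694 counts over all libraries against 61638 for Camk1. Camk1d spans chr2:5293457-5714515, minus strand, and overlaps no other gene's exons.

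Between growth cones of the genotype labels, 0 of the 10 kinase genes and 0 of 15419 genes (0%) passed in the reported edgeR fit. At an unadjusted p under 0.05 were 0 of the 10 and 2.13% of all genes. DESeq2 and limma-voom also called 0 of the 10. Among all genes DESeq2 called 11 and limma-voom 0, and edgeR called 7 in a fit of all 20 libraries. Camkk2 had the lowest p: it was at 7.33 to 14.3 RPKM in WT and 4.09 to 7.83 in KO-labelled libraries, and the log2 difference of -0.55 ± 0.25 did not pass (adjusted p = 0.999, unadjusted 0.0504). Camk1 was at 0.24 ± 0.20, Camk2g at 0.17 ± 0.24, and the other 7 were between -0.11 and 0.25 with SEs of 0.31 to 0.82, all at an adjusted p of 0.999. The SE of Camk1d was 0.41 here against 0.12 in somata.

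An interaction term, fitted on all 20 libraries, asks whether the genotype labels differ by another amount in growth cones than in somata. With edgeR 0 of the 10 kinase genes passed, beside 0.0397% of 17645 genes (0.0113% higher, 0.0283% lower), and 1 of the 10 (Camk1) and 6.98% of all genes had an unadjusted p under 0.05. For Camk1 the log2 difference, labelled KO over WT, was lower in growth cones than in somata by an interaction of -1.08 ± 0.25 (unadjusted p = 0.000285, adjusted p = 0.168). DESeq2's Wald test gave -1.07 with an adjusted p of 0.00357, so this call depends on the tool. Among all genes DESeq2 called 273 in the interaction and edgeR 7. Camk1d had an interaction of -0.68 ± 0.42 (edgeR adjusted p = 0.896). Since the soma libraries enter this test and the comparisons above, the 2 results on Camk1 are not independent of each other. That Camk1 passed in WT and not in KO-labelled libraries between compartments is thus not shown as a difference by edgeR.

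Genes with the most similar levels over the 20 libraries were looked up among 10713 genes for each kinase gene (Pearson's r of log2 CPM, a description, with compartment and depth shared by both genes of a pair). Among the 3 most similar genes of each, r was 0.97 for Camk2b with Ndrg1, 0.97 for Camk2d with S100a16, and 0.98 for Camk2g with Fam92a. Slc1a2 (0.96) and Aldoc (0.96), both astrocyte genes, followed for Camk2d. It was 0.95 for Camkk2 with Bhlhb9, 0.93 for Camk4 with Arhgef26, and 0.93 for Camk1g with Rfc5. Camkk1 (0.89, Eif2b3), Camk2a (0.87, Hcn4), Camk1 (0.87, Ctbp1) and Camk1d (0.86, Hmgcll1) had no gene above 0.90.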

How the data were processed

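Per the labels' protocols, SMART-seq v4 and Nextera XT were used on 1.8 to 3.1 ng of total RNA per soma library and 0.19 to 3.1 ng per growth cone library. The deposited values are raw counts per gene for 20 libraries in 1 table with the featureCounts layout per the file headers. Trimmomatic 0.39, STAR 2.7.1a, featureCounts 1.5.0 and the build GRCm39 are named, per the submitters' processing notes. The exon lists of 54435 of the 55487 genes (98.1%) equal those of GENCODE M21, which is on GRCm38, so the coordinates are given as the table has them, as GRCm38. The use of strand and of multi-mapped reads is not given in the sources used here. Symbols were matched for 55141 genes; 0 entries named no gene and 0 columns were unmatched.

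Groups come from the library titles. edgeR 4.0.16 (R 4.3.3) was run with filterByExpr (minimum count 10), TMM scaling and the quasi-likelihood F test on the 2 groups compared, or on all 4 for the interaction, with Benjamini-Hochberg adjustment over all genes tested at 0.05. SE is the log2 fold change over the square root of F. The code was tested on simulated data. Bcl11b was tested on log2(CPM + 0.5). RPKM and marker CPM use total counts. No replicate pair was within sampling noise. Alternatives were other scalings, no filter, DESeq2 1.42.0, limma-voom 3.58.1, a false discovery rate of 0.10, 1 fit of all libraries, a block on the experiment number, and leaving out each library. Experiment numbers are shared between labels within a compartment. Deviations of libraries with the same number correlated by 0.02 to 0.10 in growth cones and -0.01 to 0.11 in somata over 11374 genes. The best correlation with another number was 0.004 to 0.06 in growth cones and -0.004 to 0.09 in somata. The same number was above it for growth cones 7, 10 and 11 and somata 14, 22 and 25. It was below it for growth cones 8 and 9 and soma 26. The reported fits did not pair the libraries, and the block on the number is given as an alternative. The genes, lists and named items were chosen with earlier results of these data known: the 10 kinase genes are all described, and of 39 related genes up to 6 per direction with the lowest p among those that passed, plus Calm2, Calm3 and the CaMKII inhibitors, and for the other genes that passed only the fold or the name. Some items of these lists are not reported here.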

Additional observations from a re-analysis of the deposited data

Results flagged for a closer look

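In 8 of 40 groups of 5 libraries (10 genes in 4 groups) 1 library stood so far from the rest that its gap to the nearest library, as a share of the group's range, was above 0.71; chance alone gives this in about 1 in 20 groups. In WT somata library 14 was highest for Camk1d (gap 0.863 of the range; 7.03 RPKM, next 5.61) and for Camkk2 (0.748; 21.8, next 18.0), and library 12 was highest for Camk1g (0.809; 38.8, next 23.3) and lowest for Camk2b (0.712; 104, next 128). In KO-labelled somata library 25 was lowest for Camk2b (0.777; 78.1, next 104). In WT growth cones library 11 was highest for Camk2d (0.748; 6.26, next 4.77) and library 9 lowest for Camk2g (0.728; 6.42, next 9.95), and in KO-labelled growth cones library 7 was highest for Camk2g (0.808; 14.9, next 10.4). Leaving out any of these libraries ended no call among these genes between compartments, and it ended the Camk1d call in somata for library 12 and for library 25 labelled KO.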

How the results depend on the processing

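Of the kinase genes, 2 passed between soma labels in the reported fit and 1 with no filter on low counts, 1 in a fit of all 20 libraries and 1 with the block on the experiment number. Leaving out 1 library each gave 1 to 2. Among all genes, 109 passed between soma labels in the reported fit, 79 with no filter, 30 in the fit of all 20 libraries and 34 with the block. Of the related genes 2 passed there, and 1 in the fit of all 20 libraries (Nrgn then at 0.606) and 1 with the block (Pcp4 then at an adjusted p of 0.0600). The block took Camk1d to an adjusted p of 0.286 and changed no other call on the kinase genes. It turned the log2 difference of Camk1g positive, at 0.059. Leaving out 1 soma library each put Camk1g between -0.23 and 0.078, the latter without WT soma 12. For the interaction DESeq2 called 1 kinase gene (Camk1) and 1 related gene (Pcp4) where edgeR called 0 of each. Among all genes DESeq2 called 273 there and edgeR 7. Leaving out 1 library gave 0 kinase genes and 0 to 1 related genes. No paired analysis was possible for growth cones against somata because the compartments share no experiment number. Between compartments, leaving out 1 library gave 6 to 6 kinase genes in WT and 6 to 7 in KO-labelled libraries. Camk2a in WT ran from -0.058 without growth cone 11 to 0.77 without growth cone 7, and passed in KO-labelled libraries without growth cone 7 (1.41, 0.0278). Camkk1 in KO-labelled libraries passed with limma-voom (0.0390) and in the fit of all 20 libraries (0.0359). The Bcl11b difference in growth cones, -0.04, ran from -0.15 to 0.12 without 1 library. Over all comparisons 54 of 1020 values of the kinase genes under alternatives changed sign, 30 of them between growth cone labels and 21 in the interaction, and in 0 of the 54 did either value pass; values that pass nowhere in those comparisons were not followed one by one, a limit set after seeing them. The cause of each change was not tested. Low counts limit Camk2d in WT somata (57 to 367 counts) and Camk4 in WT growth cone 11 (16).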
